A study of Lotus japonicus with 16 samples.

Results

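A set of 77 genes of the legume Lotus japonicus changed with phosphate supply in roots grown at a favorable temperature and changed with temperature in shoots at low phosphate supply. They are 77 of the 3958 genes that the authors listed as changed in at least 1 of 4 comparisons. The genes were chosen by the authors' adjusted p and fold: each was listed, in either direction, for low against sufficient phosphate in roots at the favorable temperature and for high against favorable temperature in shoots at low phosphate. Each also had to be missing from the authors' lists for roots at the high temperature and for shoots at sufficient phosphate. All 77 are protein-coding genes that the RefSeq gene table names by a locus number alone, so they are described here by their levels, directions and neighbours and not by function.

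The plants were of accession MG-20 in hydroponics, treated for 3 weeks. The root groups were low phosphate (low P, 6.4 µM) and sufficient phosphate (sufficient P, 64 µM), both at the favorable temperature of 23 °C by day and 22 °C by night. The shoot groups were the high temperature (30 °C by day, 29 °C by night) and the favorable temperature, both at low P. Each group had 2 libraries from whole roots or whole shoots, and each biological replicate pooled 3 plants, per the labels' protocols. The protocols also give 5 replicates grown and a cycle of 16 h of light and 8 h of dark. The values available are those of the authors' comparison tables, so no value per library can be shown, and the depth of the libraries is unknown. The authors' adjusted p-values (DESeq2, Benjamini-Hochberg) rest on only 2 libraries a group, and the spread between those libraries cannot be shown here. The labelled tissues were not checked against marker genes, since the tables hold no level of unchanged genes and no gene functions.

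Plants short of phosphate release acid phosphatases, raise the number of phosphate transporters in the root epidermis and replace membrane phospholipids with lipids that carry no phosphate. In Arabidopsis much of this response is switched on by PHR transcription factors, which SPX proteins hold back while phosphate is plentiful. A moderate rise in ambient temperature acts on growth through other routes, among them the PIF transcription factors of Arabidopsis. Which of these routes any of the 77 genes belongs to is not given by the files or the gene table.

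Most of the 77 genes went opposite ways in the 2 tissues, where different treatments were compared. Roots were compared by phosphate supply and shoots by temperature, so opposite ways here does not mean opposite responses to the same treatment. In roots, 53 of the 77 genes were higher at low P than at sufficient P and 24 were lower. In shoots, 16 were higher at the high temperature than at the favorable temperature and 61 were lower. The largest class held 50 genes that rose in roots at low P and fell in warmed shoots at low P. A further 13 fell in low-P roots and rose in warm low-P shoots, 11 fell in both and 3 rose in both. Thus 63 of 77 genes (81.8%) went opposite ways and 14 went the same way. Of all 219 genes listed in both comparisons, these 77 included, 171 (78.1%) went opposite ways and 48 the same way. The share in the set was near that value, so it is not read as particular to the set. Over all genes behind the authors' adjustment, 10.1% were listed in these roots (4.67% higher, 5.46% lower). In these shoots 4.16% were listed (1.74% higher, 2.43% lower). These shares are given as background only, because the same lists chose the 77 genes and nothing can be read from their count against them. "Rose" and "fell" follow the authors' headings "Up-regulated" and "Down-regulated", read as higher or lower in the condition that a table names last. The tables do not state that reading. Were it turned round in both tissues, 50 genes would have fallen in roots and risen in shoots and 13 the reverse, with 11 that rose in both and 3 that fell in both. Were it turned round in 1 tissue, 14 genes would go opposite ways and 63 the same way. In whole organs, a change in the share of a cell type and a change in RNA per cell cannot be told apart.

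**Figure D1:**
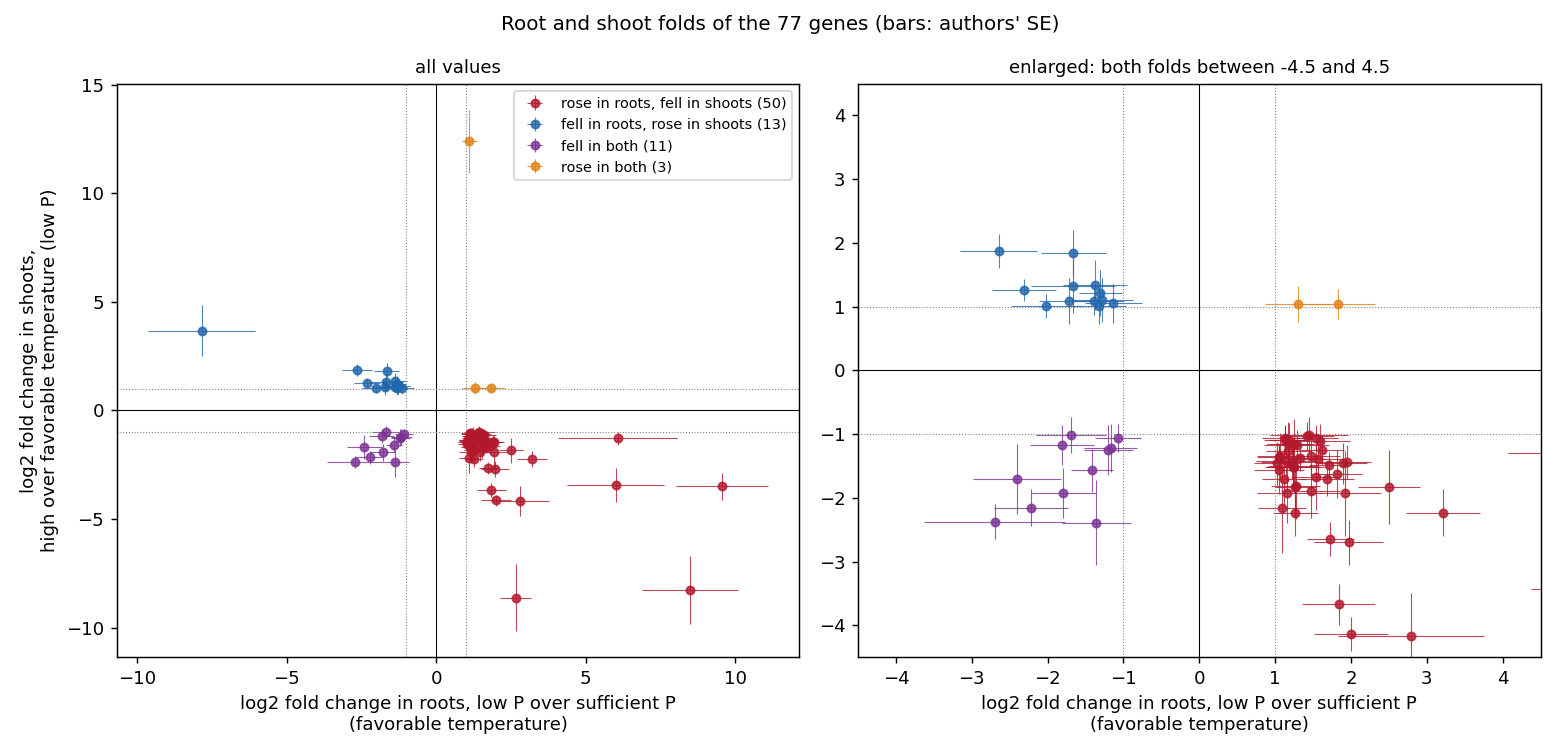
Log2 fold change of each of the 77 genes in roots (low P over sufficient P at the favorable temperature, x axis) and in shoots (high over favorable temperature at low P, y axis), with the authors' standard errors as bars and dotted lines at the listing limit of 1. The left panel shows all values and the right panel enlarges the centre, where most of the 50 genes that rose in roots and fell in shoots lie (42 of them under 4-fold in roots and 38 in shoots).

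The root and the shoot comparison have 1 treatment in common. As read here, low P at the favorable temperature is the condition with the high level in roots and also the one with the high level in shoots for the 50 genes of the largest class. For the 13 genes of the opposite class it is the condition with the low level in both tissues. With both tissues turned round, it would be the low condition for the 50 genes and the high one for the 13. The root and shoot libraries are different libraries, and the labels do not say whether 1 plant gave both. For the 50 genes, the median of the levels was 1021 normalised counts in low-P roots and 394 in sufficient-P roots. The same genes had a median of 95.04 normalised counts in warm low-P shoots and 369.98 in favorable-temperature low-P shoots. Levels were derived from each gene's base mean and fold, and roots and shoots were normalised separately, so only the 2 conditions of 1 tissue may be compared. Normalised counts are also not corrected for gene length, so they do not rank genes by transcript abundance.

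Most changes were modest. The median absolute log2 fold change of the 77 genes was 1.47 in roots (authors' standard errors, median 0.38) and 1.46 in shoots (median standard error 0.33), from the authors' deposited tables. Over all 2045 root genes and 851 shoot genes listed, these medians were 1.69 and 1.46 in the authors' deposited tables. A change of at least 4-fold was listed for 15 of the 77 genes in roots (19.5%), against 36.0% of all listed root genes. In shoots it was 17 of the 77 (22.1%), against 23.4% of all listed shoot genes. All listed genes include those also listed in the other comparison of the same tissue, which the rule kept out of the 77. In both tissues, 9 genes changed at least 4-fold, and 26 had an absolute log2 fold change under 1.5 in both. Neither count is read as a trait of the set, since the matching shares of other genes listed in both comparisons were not computed. A 95% interval of the log2 fold change (normal, from the authors' standard error) lay wholly beyond the 2-fold limit for 22 genes in roots, 23 in shoots and 12 in both. The same folds and errors chose the genes, so these intervals only describe precision and need not cover 95% after that choice. The matching shares of all listed genes were not computed, so these counts are not read as a trait of the set. The fold was larger in roots for 43 genes and larger in shoots for 34.

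Within that class of 50 genes, LOC130726079 had a clear change in both tissues. Its level was 289 normalised counts in low-P roots, against 31.2 in sufficient-P roots. In shoots it was 42.6 at the high temperature, against 200.2 at the favorable temperature. The log2 fold changes in the authors' deposited tables were 3.21 in roots (SE 0.49, DESeq2 adjusted p = 6.15e-09) and -2.23 in shoots (SE 0.37, adjusted p = 1.24e-07). LOC130713919 had a lower level throughout, with 27.3 normalised counts in low-P roots against 3.93 in sufficient-P roots, and 4.76 in warm shoots against 85.9 in favorable-temperature shoots. Its root log2 fold change of 2.80 was imprecise (SE 0.96), while its shoot value was -4.17 (SE 0.68), both in the authors' deposited tables.

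LOC130746892 and LOC130716882 had almost equal levels in roots and both fell further in shoots than they rose in roots. LOC130746892 reached 1022 normalised counts in low-P roots, against 256 in sufficient-P roots, and stood at 54.7 in warm shoots against 962 in favorable-temperature shoots. The authors' deposited table gave -4.14 for its shoot log2 fold change (SE 0.26) with a DESeq2 adjusted p = 3.29e-52, the smallest adjusted p of the 77 genes in either tissue. LOC130716882 reached 1020.3 normalised counts in low-P roots, against 259.9 in sufficient-P roots, and stood at 64.5 in warm shoots against 418 in favorable-temperature shoots. LOC130722034 also fell further in shoots than it rose in roots. It had 149 normalised counts in low-P roots against 41.7 in sufficient-P roots, and 60.8 in warm shoots against 776 in favorable-temperature shoots. Its log2 fold changes in the authors' deposited tables were 1.84 (SE 0.48) in roots and -3.67 (SE 0.32) in shoots. LOC130717432 was similar, with 854 against 258 normalised counts in low-P and sufficient-P roots and 179 against 1118 in warm and favorable-temperature shoots. Those last 2 genes are named after their values were seen.

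The 2 genes of this class with the highest geometric mean of the root and shoot base means changed less than 4-fold in both tissues. LOC130738195 stood at 67508 normalised counts in low-P roots, against 20645 in sufficient-P roots. In shoots it had 38040 normalised counts at the high temperature, against 106703 at the favorable temperature. Its log2 fold changes in the authors' deposited tables were 1.71 (SE 0.26) in roots and -1.49 (SE 0.21) in shoots. LOC130738088 had 16116 normalised counts in low-P roots against 5552 in sufficient-P roots, and 4365 in warm shoots against 9132 in favorable-temperature shoots. The authors' deposited tables gave it log2 fold changes of 1.54 (SE 0.29) in roots and -1.07 (SE 0.20) in shoots, and the shoot value lay close to the 2-fold limit.

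**Figure D2:**
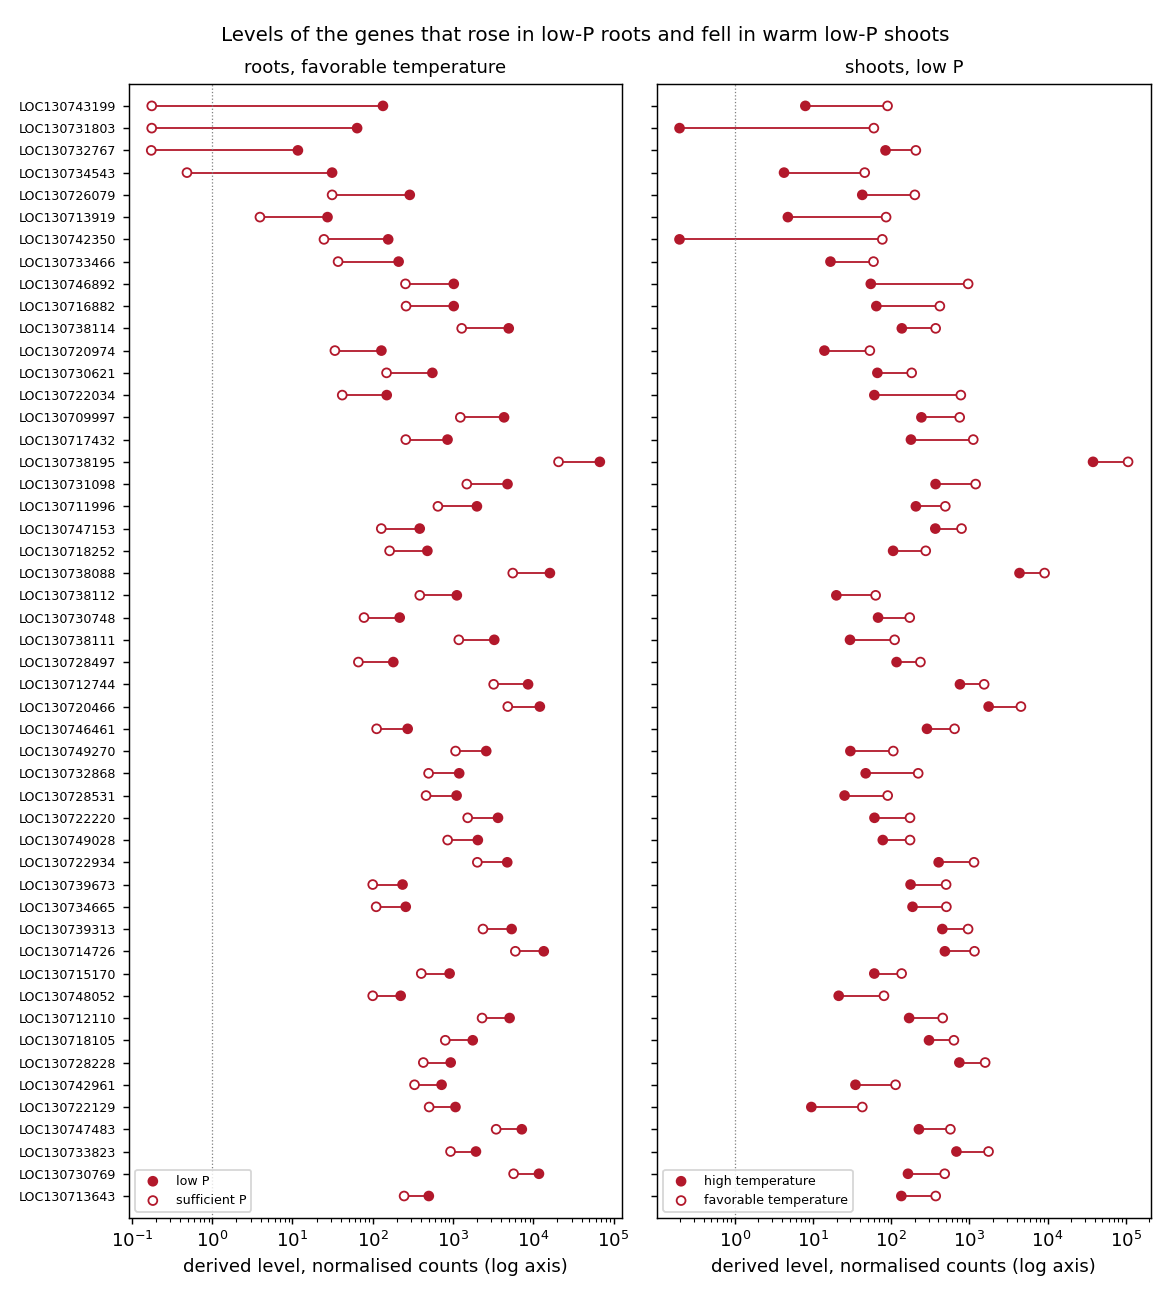
Derived levels of the 50 genes that rose with low P in roots and fell with warmth in shoots, on a log axis of normalised counts, with low P (filled) and sufficient P (open) in roots at the left and high (filled) and favorable temperature (open) in low-P shoots at the right. Genes are ordered by root fold, and points left of the dotted line are levels under 1 normalised count.

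A few of the largest folds rest on a level near 0. All folds here are the authors' model estimates, and all levels are derived from them. The lower of the 2 levels was under 1 normalised count for 5 genes in roots and 3 in shoots. These were 7 genes in all, and the size of such a fold depends on that level near 0. They are named here after their values were seen. LOC130743199 had the largest root rise of the set, to 134 normalised counts in low-P roots, against a level fitted under 1 in sufficient-P roots. Its root value in the authors' deposited table was 9.57 on the log2 scale (SE 1.54). In shoots it stood at 7.97 normalised counts at the high temperature against 89.7 at the favorable temperature, and the authors' deposited table gave the difference as -3.49 on the log2 scale (SE 0.63). LOC130731803 was fitted under 1 in sufficient-P roots and again in warm shoots, against 63.8 normalised counts in low-P roots and 59.9 in favorable-temperature shoots. It was the 1 gene of the set with such a level in both tissues. LOC130742350 had the largest shoot fall, to a level fitted under 1 in warm shoots, against 76.9 normalised counts in favorable-temperature shoots. Its root levels were 156 normalised counts at low P against 24.7 at sufficient P. LOC130734543 and LOC130732767 were the other genes of this class fitted under 1 in sufficient-P roots, with 31.1 and 11.7 normalised counts in low-P roots. LOC130732767 had the lowest root base mean of the set, 5.92 in the authors' deposited table, and the largest root standard error, 2.00.

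Over the whole largest class, most folds were under 4-fold. Of the 50 genes, 42 changed less than 4-fold in roots and 38 less than 4-fold in shoots. Their median log2 fold change was 1.46 in roots and -1.51 in shoots, in the authors' deposited tables. The absolute fold was larger in roots for 23 of them and larger in shoots for 27. LOC130713643 lay nearest the root listing limit of the whole set, at 1.02 (SE 0.30) on the log2 scale of the authors' deposited table. LOC130728497 lay nearest the adjusted p limit in roots (log2 fold change 1.45, SE 0.51, DESeq2 adjusted p = 0.040, authors' deposited table). LOC130720974 lay nearest that limit in shoots (log2 fold change -1.93, SE 0.67, DESeq2 adjusted p = 0.048, authors' deposited table). Genes just outside the limits were not analysed here, since the tables give no values for them.

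A run of 3 members of the largest class lies close together on the reference assembly, LjGifu_v1.2. The plants were of accession MG-20, and the order of genes in that accession was not checked. LOC130738112 and LOC130738114 are next to each other in the order of protein-coding genes, and LOC130738111 is separated from LOC130738112 by 1 protein-coding gene, LOC130736504, which no table lists. LOC130738111 had 3265 normalised counts in low-P roots against 1181 in sufficient-P roots, and 29.7 in warm shoots against 110.4 in favorable-temperature shoots. For LOC130738112 the levels were 1116 against 385 normalised counts in low-P and sufficient-P roots, and 19.9 against 63.2 in warm and favorable-temperature shoots. LOC130738114 had 4945 against 1283 normalised counts in low-P and sufficient-P roots, and 137 against 369.7 in warm and favorable-temperature shoots. In the authors' deposited root table the 3 genes had log2 fold changes of 1.47 (SE 0.38), 1.53 (SE 0.32) and 1.95 (SE 0.32), in the order of the genes. In the authors' deposited shoot table they had log2 fold changes of -1.90 (SE 0.43), -1.67 (SE 0.51) and -1.44 (SE 0.27). The gene on the far side of LOC130738111, LOC130736503, rose in warm low-P shoots with a log2 fold change of 2.25 in the authors' deposited table, and no root table lists it. Whether the 3 neighbours share sequence, and so reads, was not tested.

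**Figure D3:**
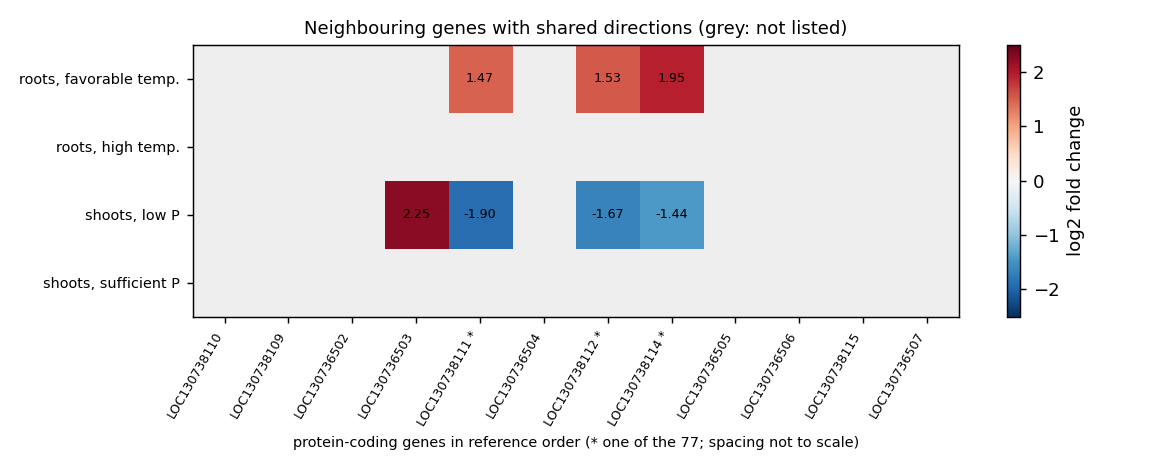
Log2 fold changes of 12 protein-coding genes in their order on the reference assembly (columns) in the 4 comparisons of the authors (rows), with grey for a gene that a comparison does not list. LOC130738111, LOC130738112 and LOC130738114 are positive in favorable-temperature roots and negative in low-P shoots, and LOC130736503 beside them is positive in low-P shoots.

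No other members of the set were that close to each other. In the root table, 14 of the 77 genes (18.2%) had an adjacent protein-coding gene listed in the same direction, against 13.7% of all listed root genes. In the shoot table it was 6 of 77 (7.79%), against 10.6% of all listed shoot genes.

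The 13 genes that fell in low-P roots and rose in warm low-P shoots were led by LOC130714028, which among those with both levels at 1 normalised count or more had the largest fold in the tissue where it changed less. It had 172 normalised counts in low-P roots, against 1074 in sufficient-P roots, and 449 in warm shoots against 122 in favorable-temperature shoots. The log2 fold changes in the authors' deposited tables were -2.64 (SE 0.51, DESeq2 adjusted p = 8.58e-06) in roots and 1.88 (SE 0.27, adjusted p = 8.83e-10) in shoots. LOC130747419 had 109 normalised counts in low-P roots against 343 in sufficient-P roots, and 218 in warm shoots against 60.9 in favorable-temperature shoots. LOC130739039 had 219.5 against 571 normalised counts in low-P and sufficient-P roots, and 175 against 69.4 in warm and favorable-temperature shoots. LOC130748451 had the lowest levels of these 4 genes, with 21.5 against 68.2 normalised counts in low-P and sufficient-P roots and 108 against 43.4 in warm and favorable-temperature shoots. Its adjusted p-values in the authors' deposited tables were 0.027 in roots and 0.028 in shoots (DESeq2).

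In this class the root change was the larger one for 12 of the 13 genes. Their median log2 fold change was -1.66 in roots and 1.22 in shoots in the authors' deposited tables, and 10 of the 13 rose by a log2 fold change under 1.5 in shoots. LOC130733772 and LOC130717219, which had the highest geometric mean of the root and shoot base means in the class, were of this kind. LOC130733772 had 540.04 normalised counts in low-P roots against 1414 in sufficient-P roots, and 1208 in warm shoots against 565 in favorable-temperature shoots. LOC130717219 had 430.3 against 1065 normalised counts in low-P and sufficient-P roots, and 1439 against 619 in warm and favorable-temperature shoots. LOC130714982 and LOC130740898, named after their values were seen, fell at least 4-fold in low-P roots. LOC130714982 had 82.6 normalised counts there against 411 in sufficient-P roots, and 1912 in warm shoots against 798 in favorable-temperature shoots. LOC130740898 had 43.1 against 175 normalised counts in low-P and sufficient-P roots, and 1445 against 715 in warm and favorable-temperature shoots. LOC130729922 had the largest root fall of the set, to a level fitted under 1 in low-P roots, against 43.6 normalised counts in sufficient-P roots. It had 24.4 normalised counts in warm shoots against 1.91 in favorable-temperature shoots, and its shoot log2 fold change of 3.68 in the authors' deposited table was imprecise (SE 1.17).

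**Figure D4:**
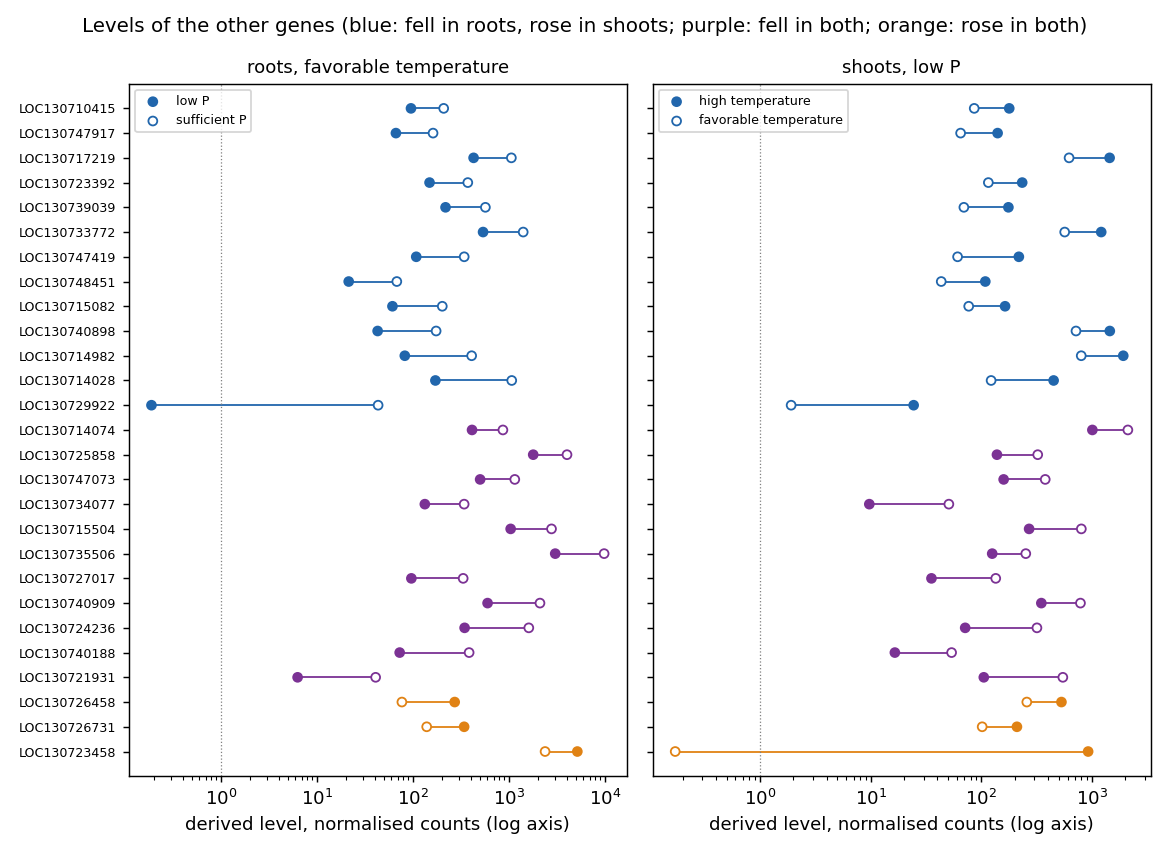
Derived levels of the 27 genes outside the largest class, on a log axis of normalised counts, with low P (filled) and sufficient P (open) in roots at the left and high (filled) and favorable temperature (open) in low-P shoots at the right. Blue marks the 13 genes that fell in roots and rose in shoots, purple the 11 that fell in both and orange the 3 that rose in both, of which LOC130723458 has by far the widest shoot gap.

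The 11 genes that fell in both low-P roots and warm low-P shoots had similar median folds in the 2 tissues, though the folds of single genes could differ. Their median log2 fold change was -1.69 in roots and -1.57 in shoots in the authors' deposited tables, and the larger fold was in roots for 6 and in shoots for 5. LOC130724236 fell to 347 normalised counts in low-P roots, against 1618 in sufficient-P roots, and to 71.3 in warm shoots, against 317 in favorable-temperature shoots. Its log2 fold changes in the authors' deposited tables were -2.22 (SE 0.49) in roots and -2.15 (SE 0.29) in shoots. LOC130721931 had a low root level, with 6.32 normalised counts in low-P roots against 41.1 in sufficient-P roots, and had 105 in warm shoots against 544 in favorable-temperature shoots. The root fold was near the adjusted p limit (log2 fold change -2.70, SE 0.93, DESeq2 adjusted p = 0.035), whereas the shoot fold was precise (log2 fold change -2.37, SE 0.27, adjusted p = 5.31e-16), both in the authors' deposited tables. LOC130740188 had 73.1 against 386 normalised counts in low-P and sufficient-P roots and 16.5 against 53.8 in warm and favorable-temperature shoots.

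LOC130727017 had 96.7 normalised counts in low-P roots against 335 in sufficient-P roots, and 35.4 in warm shoots against 134.7 in favorable-temperature shoots. LOC130715504 had 1047 against 2789 normalised counts in low-P and sufficient-P roots, and 269.7 against 799 in warm and favorable-temperature shoots. LOC130735506 combined a high root base mean with the shoot fold nearest the listing limit in the set. It had 3049 normalised counts in low-P roots against 9852 in sufficient-P roots, and 125 in warm shoots against 252 in favorable-temperature shoots. The shoot log2 fold change was -1.01 (SE 0.28) in the authors' deposited table.

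Of the 3 genes that rose in both tissues, LOC130723458 stood apart. In roots it was moderately higher, with 5182 normalised counts at low P against 2391 at sufficient P. In shoots it had 920.4 normalised counts at the high temperature, against a level fitted under 1 at the favorable temperature. The log2 fold changes in the authors' deposited tables were 1.12 (SE 0.27) in roots and 12.39 (SE 1.46, DESeq2 adjusted p = 7.55e-15) in shoots. The shoot value is the largest rise of the set, and its size depends on that level under 1. LOC130726458 had 273 against 77.1 normalised counts in low-P and sufficient-P roots, and 528 against 257 in warm and favorable-temperature shoots. LOC130726731 had 343 against 139.7 normalised counts in low-P and sufficient-P roots, and 209 against 102 in warm and favorable-temperature shoots. Both had shoot log2 fold changes of 1.04 in the authors' deposited table, just past the limit.

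The set was then placed beside the other genes that the authors listed in both of these comparisons. In all, 219 genes were listed in favorable-temperature roots and in low-P shoots. Besides the 77, there were 71 also listed in high-temperature roots, 48 also listed in sufficient-P shoots and 23 listed in all 4 comparisons. Genes that rose in roots and fell in shoots made up 50 of the 77 (64.9%), 54 of the 71 (76.1%), 11 of the 48 (22.9%) and 9 of the 23 (39.1%). Genes that fell in roots and rose in shoots made up 13 of the 77 (16.9%), 6 of the 71 (8.45%), 21 of the 48 (43.8%) and 7 of the 23 (30.4%). Opposite directions were seen for 81.8%, 84.5%, 66.7% and 69.6% of these groups. The mix of the 77 was thus nearer to that of the 71 genes shared with high-temperature roots than to the other groups, a difference that was not tested. In roots the 77 had smaller folds than the other 142 genes, with a median absolute log2 fold change of 1.47 against 2.15 in the authors' deposited table. In shoots the medians were 1.46 and 1.50 in the authors' deposited table. The rule kept any gene also listed in high-temperature roots out of the 77, whereas the 142 include the 71 and the 23 listed there. The same folds chose the genes, so the differences in folds were not tested either.

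**Figure D5:**
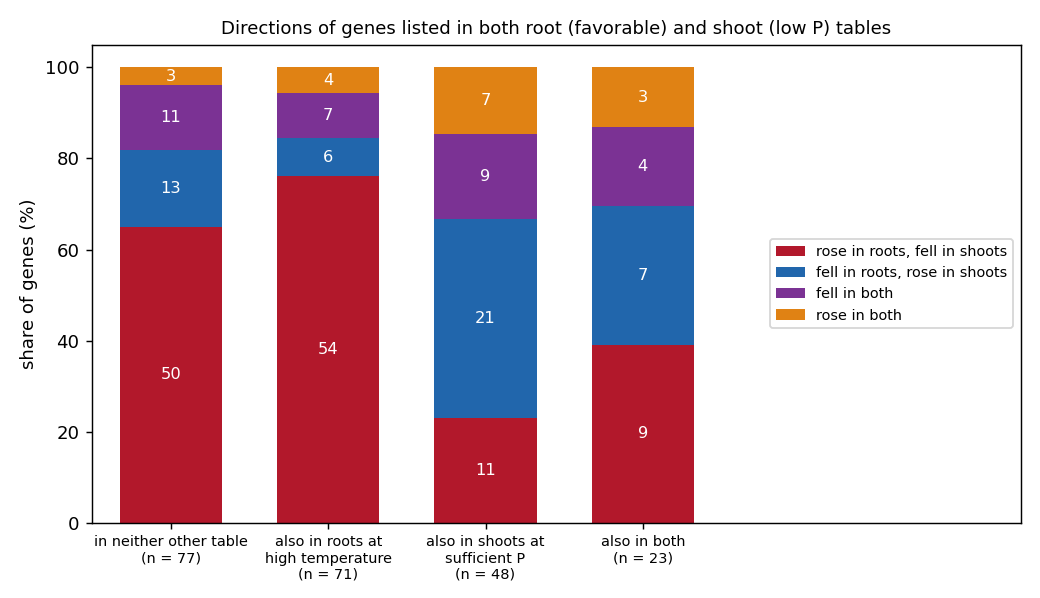
Share of genes in each direction class (percent, stacked, counts in white) among the 219 genes listed in favorable-temperature roots and in low-P shoots, split by whether the authors also list them in the other root comparison, the other shoot comparison or both. The 77 genes in neither other table are at the left, with 50 of them in the class that rose in roots and fell in shoots.

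Being missing from the other lists does not show that these genes kept their level there. In high-temperature roots the largest raw p-value of a listed gene was 0.00257, and 9 of the 77 genes had a larger raw p in the favorable-temperature root table. These 9 would not have been listed at the high temperature with the same statistics. The share of all 2045 listed root genes above that raw p was not computed, so the 9 are not read as a trait of the set. In sufficient-P shoots the largest raw p of a listed gene was 0.00954, while no gene listed in low-P shoots had a raw p above 0.00411. None of the 77 could therefore exceed the limit of the sufficient-P shoots, and nothing follows from that for their absence there. Whether the folds of the 77 genes differed between the temperatures in roots, or between the supplies in shoots, was not tested, because their values in the other comparisons are not listed.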

How the data were processed

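Poly(A) RNA libraries, directional and read as 150 bp pairs, came from 16 samples in 8 groups of 2, per the labels' protocols. Tools named by the submitters' processing notes were DESeq2 1.44.0, RSEM 1.3.3, Trimmomatic 0.39.2 and FastQC 0.14.0. The sources used here name no genome build. The deposited tables are the authors' 4 comparisons. Per the file headers they hold a base mean (a score here: the mean of counts over size factors), a log2 fold change with its standard error, a Wald statistic (also a score), and a raw and an adjusted p-value. In every row the adjusted p was under 0.05 and the absolute log2 fold change at least 1, and the statistic equalled the fold over its error. Depth is unknown, and no value per library was used. Groups and replicates follow the titles of the samples.

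Tables were joined by gene identifier with Python 3.11.15, pandas 2.3.3 and NumPy 2.4.6. The level in each condition was derived from base mean and fold for 2 libraries a group. How many genes the authors' adjustment covered (20175 for the favorable-temperature roots, 20438 for the low-P shoots) was recovered from the top gene's adjusted over raw p and checked on simulated tables. All 3958 identifiers matched a RefSeq gene table of LjGifu_v1.2, which served for symbols and gene order. It gives no descriptions or sequences, so the planned gene lists, promoter motifs, protein signatures and protein families were not scored. No test was made on the values that chose the genes. Named genes were, per direction class, the 4 with the largest smaller fold (both levels at least 1) and the 2 with the highest geometric mean of the root and shoot base means, plus extremes, genes nearest a limit and neighbours. The genes and this rule were chosen with earlier results of these data known.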

Additional observations from a re-analysis of the deposited data

How the results depend on the processing

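No paired analysis was possible because no single library has values here, and no replicate could be left out. The alternatives on promoter windows and protein identity were not run, since no sequences were used here. Of 58 recomputed values, 33 stayed close and 25 moved, where a count had to stay within 1.5 times the count reported and a median fold had to move by less than the genes' median standard error. The largest class stayed the one that rose in roots and fell in shoots under every alternative run. Most alternatives kept only genes of the same set, cut by the values that chose them, so this says little about robustness. Among the 48 genes also listed in sufficient-P shoots, 21 fell in roots and rose in shoots and 11 did the reverse. For the 71 also in high-temperature roots these counts were 6 and 54, and for the 23 in every comparison 7 and 9. A limit of 2 on the absolute log2 fold change in both comparisons left 9 genes, of which 6 rose in roots and fell in shoots, 1 did the reverse, 2 fell in both and 0 rose in both. With a limit of 1.5 there were 22 genes, split 15, 3, 4 and 0 in the same order. An adjusted p under 0.01 in both left 49 genes, with 6 that fell in roots and rose in shoots and 6 that fell in both. A base mean of at least 100 in both left 33 that rose in roots and fell in shoots and 7 that fell in both. Keeping the genes of the other root or shoot table gave 219 genes, split 124, 47, 31 and 17. All of these moves follow from fewer or more genes being admitted. The raw p limit of the high-temperature roots, chosen after seeing the data, left 68 genes. The precision of a fold is limited by 2 libraries a group and, for genes with a level under 1 normalised count, by that level.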
